A study of Mus musculus with 8 samples.

Results

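The autosomal H3K9me3 peaks of mouse embryonic fibroblasts (MEFs) with and without Peg3 were examined. All rows of the wild-type and the knockout H3K9me3 peak table on chromosomes 1 to 19 were taken. This gave 156 wild-type and 88 knockout peaks, or 244 of the 581 peaks in all 4 tables of the study. A further 22 H3K9me3 peaks on the sex chromosomes were left out. A peak was called shared if it overlapped a peak of the other genotype by at least 1 bp. In wild type 62 peaks were shared (39.7%, exact 95% interval 32% to 47.9%), while the knockout list shared 63 (71.6%, interval 61.0% to 80.7%). This left 94 peaks listed for wild type alone, against 25 for knockout alone. Of the peaks of wild type alone, 40 lay in arrays of close peaks, such as those beside Cdkn1a, at Duxf3 and on chromosome 8, and the others at mostly low sites. The arrays held 84 of all 156 wild-type peaks (53.8%), a larger share than of the peaks of wild type alone. Of the 25 peaks of knockout alone, 15 lay in regions without any wild-type peak.

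Trimethylation of lysine 9 of histone H3 marks constitutive heterochromatin. SUV39H enzymes write it at pericentromeric repeats, and SETDB1, brought by TRIM28 and KRAB zinc finger proteins, writes it at retroviral elements and imprinted control regions. HP1 proteins read the mark and compact the chromatin. In fibroblasts it is known for silencing repeats, zinc finger gene clusters and genes of other lineages. Peg3 is a paternally expressed imprinted gene that encodes a large zinc finger protein able to bind DNA.

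MEFs are cells grown from the body of a midgestation embryo. The cells came from C57BL/6 embryos of 14.5 days post coitum, either wild type or Peg3 knockout. Each genotype had 1 library with the H3K9me3 antibody and its own input, DNA taken before precipitation, whose raw data also served as the control of the PEG3 antibody library. The labels do not give the knockout allele, the number or sex of the embryos, or whether embryos were pooled, so clone or embryo differences and genotype cannot be told apart. Since each genotype had 1 library, genotypes were compared without a test. Intervals of height ratios at single or pooled places cover counting error only. Those of shares and medians treat peaks or pairs as independent, which close peaks are not. None of the intervals covers the spread between embryos or libraries.

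The wild-type H3K9me3 library kept 26295696 tags after removal of duplicates and the knockout library 27289192. Duplicates took 15.5% and 14.6% of the tags. The name of the knockout alignment in the file header carries a mark that the wild-type name lacks and that no label explains, so whether its reads were subsampled before peak calling is not known. The inputs kept 24305045 and 26470256 tags. Each peak's height is given as the number of fragments that covered its summit, and heights are compared between genotypes after division by the kept tags. The lowest listed −log10 p was 5.85 in wild type and 6.93 in knockout, so the wild-type list reached weaker peaks. Of the 156 wild-type peaks 149 also reached the lowest value of the knockout list, and 89 of these were in wild type alone. Cell identity could not be checked from these lists, which hold no expression values.

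Peg3 itself (chromosome 7, 6703892 to 6730462, build mm10) held 2 wild-type H3K9me3 peaks and 0 knockout peaks. The wild-type peaks were at 6707663 to 6707800, with 13 fragments and an enrichment of 5.76-fold over input, and at 6711278 to 6711704, with 14 fragments and 6.17-fold. Both were among the lowest of the list, and the input there was at the genome-wide level. A knockout summit of 12 fragments would have been enough for the knockout list at that background. The PEG3 antibody gave 13 wild-type and 19 knockout peaks in the same gene, so the peak tables do not show the loss of the protein.

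Promoter sequence could be set beside the peaks through RefSeq windows of 250 bases before to 50 after a gene's start (GRCm38.p6, the assembly behind mm10). Of 32851 such windows for 27025 genes, only those of Duxf3 and Gm40237 met an autosomal H3K9me3 peak. They are shown because they are the places where a peak and a gene start coincide. Each runs 5′ to 3′ along its gene, and capitals mark the bases under the wild-type peak. Duxf3 is a copy of Dux, a double homeobox factor known for switching on genes of the cleavage-stage embryo, and its window lies on the minus strand at chr10:58233040-58233339.
Duxf3: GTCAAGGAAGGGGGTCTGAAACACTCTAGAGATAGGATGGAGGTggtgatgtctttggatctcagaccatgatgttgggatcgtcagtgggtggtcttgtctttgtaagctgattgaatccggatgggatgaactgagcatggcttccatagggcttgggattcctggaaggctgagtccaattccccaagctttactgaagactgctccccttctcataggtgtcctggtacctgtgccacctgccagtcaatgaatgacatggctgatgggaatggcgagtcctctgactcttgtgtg
The window of Gm40237, a predicted gene, lies on the plus strand at chr4:118547156-118547455.
Gm40237: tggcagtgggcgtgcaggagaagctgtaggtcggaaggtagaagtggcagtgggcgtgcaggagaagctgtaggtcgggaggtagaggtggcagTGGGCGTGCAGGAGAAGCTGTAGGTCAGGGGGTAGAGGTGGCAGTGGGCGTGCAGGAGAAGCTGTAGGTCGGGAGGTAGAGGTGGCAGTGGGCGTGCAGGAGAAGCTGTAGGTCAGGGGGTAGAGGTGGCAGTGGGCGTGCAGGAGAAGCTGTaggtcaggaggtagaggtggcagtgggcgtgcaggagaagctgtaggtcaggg
In the Duxf3 window the wild-type peak at 58233296 to 58233462, with 26 fragments, reached over only the first 44 bases, those farthest upstream, and no knockout peak was listed. The window was 51.0% G or C with 3 CpG pairs. In the Gm40237 window the peaks of both genotypes lay over the middle. The wild-type peak of 75 fragments covered 153 of the 300 bases and the knockout peak of 84 fragments 174. This window was 62.7% G or C with 10 CpG pairs, and it was a tandem repeat, in which 96.1% of the bases equalled those 44 positions later and 97.6% those 88 positions later. Over all windows the median at 88 positions was 26.4%. The stretch TGGCAGTGGGCGTGCAGGAGAAGCT, a part of the repeat, was searched on both strands. It stood 7 times in the window and was found in 2 of the 32851 windows (0.00609%), both of Gm40237. A match of letters is a description of the window and not a binding site.

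Closely spaced peaks are not separate sites, so peaks of both genotypes within 10 kb of each other were merged into regions. The 244 peaks formed 86 regions, of which 31 held peaks of both genotypes, 41 had only wild-type peaks, and 14 had only knockout peaks. A total of 49 regions consisted of 1 peak, 36 wild type and 13 knockout. At the other end, 12 regions with at least 5 peaks held 84 peaks of the wild-type list (53.8%) and 50 of the other (56.8%). Of these 12 arrays 8 had more wild-type peaks, 4 had equal numbers and 0 had more knockout peaks. The arrays also held 40 of the 94 peaks of wild type alone and 5 of the 25 of knockout alone.

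**Figure D1:**
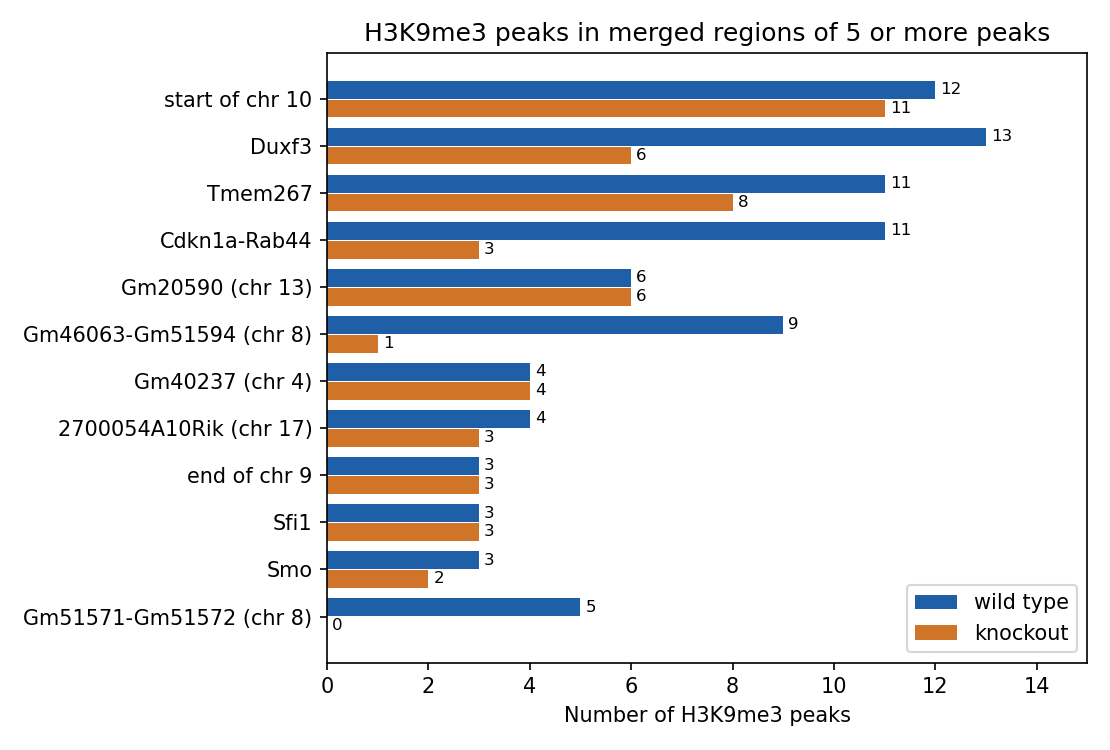
Number of H3K9me3 peaks (x axis) in each of the 12 merged regions with at least 5 peaks, for the wild-type and the knockout library (1 each). Wild-type counts exceed knockout counts in 8 regions, by 11 to 3 beside Cdkn1a and 9 to 1 on chromosome 8, and are equal in 4.

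The array beside Cdkn1a lay on chromosome 17 at 29102865 to 29108521. This region lies between Cdkn1a, the p53 target that encodes the cyclin-dependent kinase inhibitor p21, and Rab44, a Rab family GTPase gene. It was 2143 bp from Cdkn1a and 5607 bp from Rab44. The 11 wild-type summits had 40, 21, 34, 30, 30, 19, 20, 23, 20, 26 and 23 fragments from left to right. The 3 knockout summits had 26, 23 and 24. All knockout heights lay within the wild-type range. The listed peaks covered 2071 bp for wild type, against 370 bp for the knockout. Where both genotypes had a peak, at 2 places, the pooled heights were 54 and 50 fragments, a knockout over wild-type ratio of 0.892 (0.595 to 1.34). For the 9 peaks of wild type alone, between 14 and 24 knockout fragments would have reached the knockout list at the wild-type background. That number was under the wild-type height rescaled to the knockout library in 7 of the 9, and at least 1.5 times under it in 3. The array therefore differed in the number of listed peaks, while heights at the shared places did not differ beyond counting error.

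On chromosome 8 a pair of arrays had nearly all of its peaks in the wild-type list. At 55117110 to 55123396, over the predicted genes Gm51571 and Gm51572, 5 wild-type peaks of 16 to 23 fragments stood against 0 knockout peaks. At 55351156 to 55383090, from Gm46063 to Gm51594, 9 wild-type peaks of 15 to 33 fragments stood against 1 knockout peak of 17 fragments that overlapped none of them. These summits were close to the height set by the weakest listed knockout peak. All 14 needed a knockout height under their own, but only 1 of them needed a height at least 1.5 times under it.

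The Duxf3 array on chromosome 10, at 58221728 to 58239656, held 13 wild-type and 6 knockout peaks. Wild-type summits ran from 26 to 77 fragments and knockout summits from 34 to 69. Both libraries had their highest summit at the same place, 58223955 to 58224165 in wild type, with 77 and 69 fragments. At the gene itself the shared peak at 58231843 had 51 and 34 fragments, a ratio of 0.642 (0.404 to 1.01), and the one at 58232440 had 46 and 39. Over the 5 shared places the pooled ratio was 0.857 (0.713 to 1.03), with 4 of 5 lower in knockout. Wild type alone had 8 further peaks and knockout alone 1. Of the 8, 3 stood at least 1.5 times above the height needed for the knockout list.

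**Figure D2:**
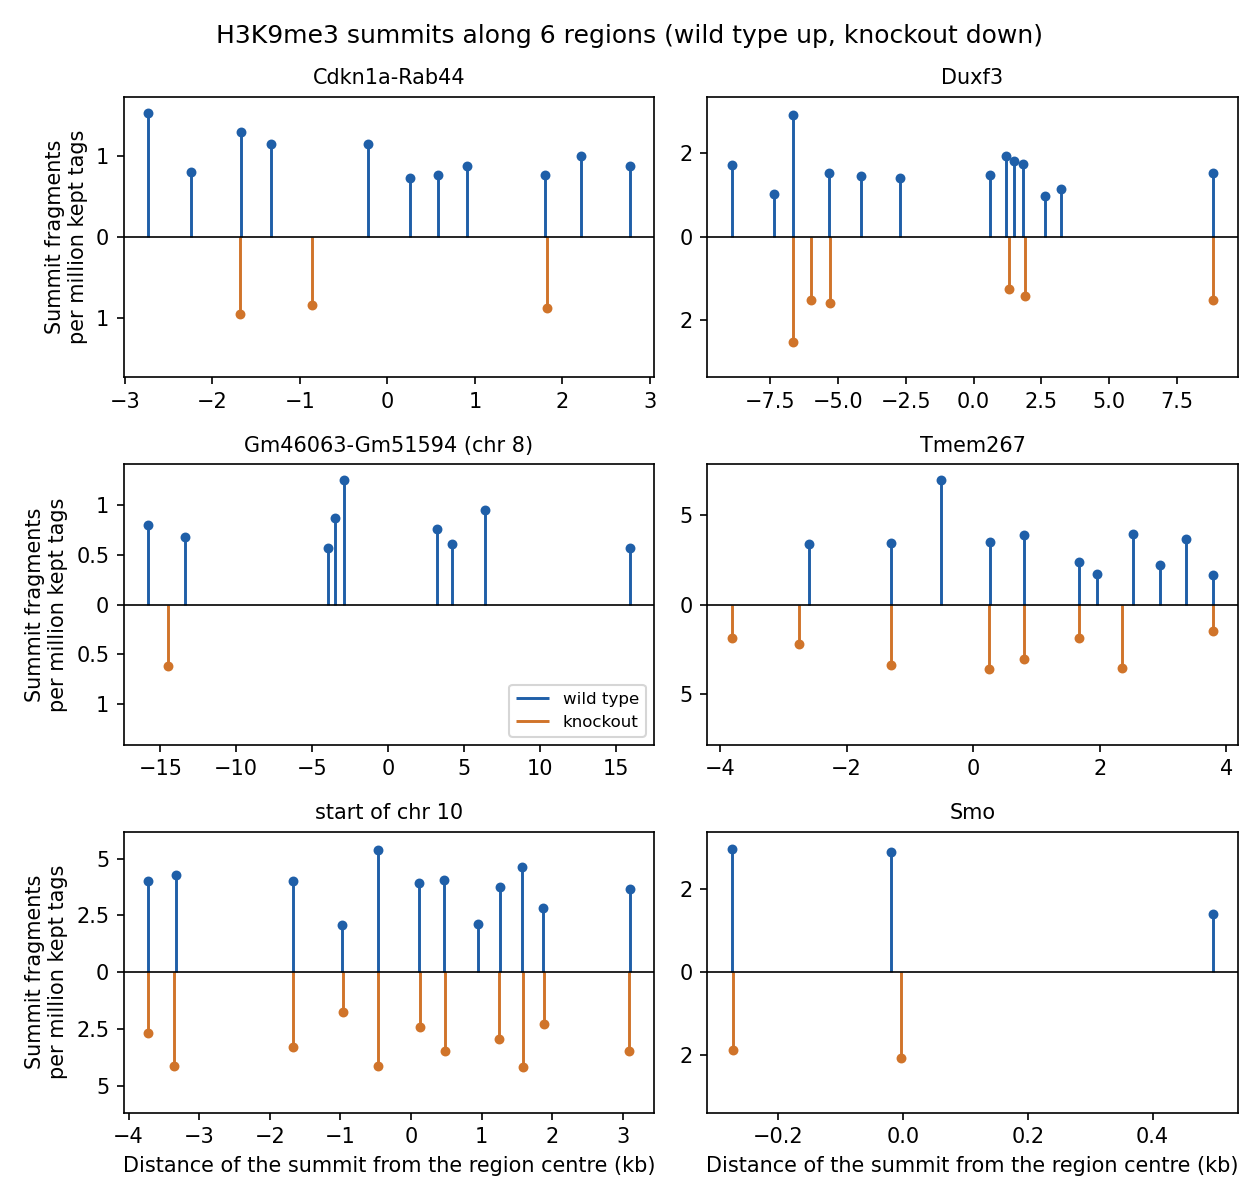
Height of every listed H3K9me3 summit, in fragments per 1000000 kept tags (wild type upward, knockout downward), against its distance from the centre of 6 merged regions in kb. Beside Cdkn1a 11 wild-type summits face 3 knockout summits, and on chromosome 8 the ratio is 9 to 1, whereas at the start of chromosome 10 the 11 knockout peaks each overlap a wild-type peak and 1 of the 12 wild-type peaks has no partner.

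The array with the most peaks lay near the start of chromosome 10, at 3109562 to 3117141, 665 bp from the predicted gene Gm3318 and 4720 bp from Gm30674. It held 12 wild-type and 11 knockout peaks, and all 11 places with both were lower in knockout. Pooled over them, 1120 wild-type and 946 knockout fragments gave a ratio of 0.814 (0.746 to 0.888). The lowest was the place at 3113112 to 3113555, with 103 and 66 fragments and a ratio of 0.617 (0.446 to 0.849). The place at 3109562 to 3109774 had 105 and 73 fragments (0.670, 0.490 to 0.912), and that at 3112609 to 3112959 had 142 and 112 (0.760, 0.588 to 0.981). Against input the picture was mixed, since the fold enrichment in knockout was 0.732 times that of wild type at 3109562 but 1.12 and 1.21 times at the other 2 places.

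Smo, which encodes the transmembrane transducer of Hedgehog signals, had 3 wild-type and 2 knockout peaks within 29747880 to 29748939 on chromosome 6. At 29747880 to 29748189 the summit had 78 wild-type and 51 knockout fragments, a ratio of 0.630 (0.434 to 0.908). The neighbouring place had 76 and 56, a ratio of 0.710 (0.494 to 1.02). Pooled, 154 against 107 fragments gave 0.670 (0.518 to 0.862), the lowest pooled ratio among the 10 arrays with shared places. The enrichment over input at the first place was 8.12-fold in wild type and 5.61-fold in knockout. The third wild-type peak, with 37 fragments and 8.78-fold, had no knockout partner. At its wild-type background, 2.39 times the genome-wide level, 17 knockout fragments would have been enough for the list. At the shared places the background was 6.35 and 8.73 times that level in wild type, and 5.77 and 7.93 times in knockout.

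Tmem267, a gene for a transmembrane protein on chromosome 13, had 11 wild-type and 8 knockout peaks at 119595725 to 119603435. Wild-type summits had 44 to 183 fragments and knockout summits 41 to 99. At 119596662 to 119597124 the heights were 89 and 60, a ratio of 0.650 (0.460 to 0.911). Over the 7 shared places the ratio was 0.863 (0.766 to 0.973), and 6 of 7 were lower in knockout. The highest wild-type summit of the whole list, 183 fragments at 119598942 to 119599117, was in wild type alone. It was only 2.43-fold over an input that was itself 54.7 times the genome-wide level, and it lay near the ceiling of 194 fragments set by keeping 1 tag per position.

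Gm20590, a pseudogene on chromosome 13 at 74528695 to 74530631, had 6 peaks in each genotype at the same places. All 6 were lower in knockout, 714 against 647 fragments in all, a ratio of 0.873 (0.784 to 0.973). The median input background over these peaks was 17.4 times the genome-wide level in wild type and 10.1 times in knockout, and the fold enrichment was 1.09 to 2.22 times higher in knockout. Height and enrichment thus moved in opposite directions there. At 2700054A10Rik on chromosome 17 (13550681 to 13553129) there were 4 wild-type and 3 knockout peaks. They formed 3 pairs, taking the highest partner where a peak had several, with 385 against 345 fragments and a ratio of 0.863 (0.745 to 1.001). The place at 13551795 to 13551995 had 102 and 78 fragments (0.737, 0.542 to 0.999).

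The remaining arrays had equal numbers of peaks. At Gm40237 on chromosome 4 there were 4 peaks in each genotype, of which 3 pairs gave a ratio of 0.910 (0.776 to 1.07). A wild-type peak of 76 fragments at 118548228 had no knockout partner. A knockout peak of 57 fragments at 118547563 was the lower partner of a paired wild-type peak and was left out. At the end of chromosome 9, 124256329 to 124258005, there were 3 in each and a ratio of 0.844 (0.726 to 0.981). At Sfi1 on chromosome 11, a gene for a centrin-binding protein of the centrosome, 3 peaks in each genotype shared only 1 place, with a ratio of 1.01 (0.739 to 1.38).

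Across all shared places the heights were moderately lower in knockout. The 61 pairs, taking the highest partner where a peak had several, had a median knockout over wild-type ratio of 0.896 (0.832 to 0.935). The quartiles were 0.794 and 0.997, and 47 pairs were lower and 14 higher in knockout. The interval of 7 pairs (11.5%) lay wholly below 1 and that of 0 pairs (0.0%) wholly above. A ratio lower by 1.5 times or more was seen in 4 pairs (6.56%), at Gm3318, Duxf3, Tmem267 and Smo, and a ratio higher by that much in 0 pairs (0.0%). Besides the 6 places given above, the interval lay below 1 at Gm36684, a predicted gene on chromosome 17 (13305969 to 13306229), with 111 and 81 fragments and a ratio of 0.703 (0.521 to 0.945). The PEG3 antibody pairs of the same cells, which use the same inputs, had 8 of 60 intervals below 1 (13.3%) and 10 above (16.7%), and a median of 0.934 (0.815 to 1.19).

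The median ratio was lower inside the arrays than outside them. The 43 pairs in arrays had a median ratio of 0.862 (0.807 to 0.899), with 38 lower in knockout, and the 18 pairs elsewhere 1.004 (0.913 to 1.12), with 9 lower. The 26 pairs that also overlapped a PEG3 antibody peak had 0.854 (0.794 to 0.913), and the other 35 had 0.972 (0.841 to 1.01). The difference between these classes was not tested. Counting each region once, 17 of 25 regions had a pooled ratio below 1, 6 with an interval wholly below and 0 wholly above. The median of these region ratios was 0.910 (0.857 to 1.01), an interval that includes 1. The authors' fold enrichment did not show the direction. Its median ratio was 1.004 (0.842 to 1.09), and 30 of 61 pairs were below 1. The input background had a median knockout over wild-type ratio of 0.918 (0.816 to 1.07) in the 58 pairs with a local background in both. It was lower in knockout in 32 of the 58. In 27 of these height and background were both lower in knockout, and in 18 the height was lower and the background higher. The part of the input in the height difference was not tested.

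**Figure D3:**
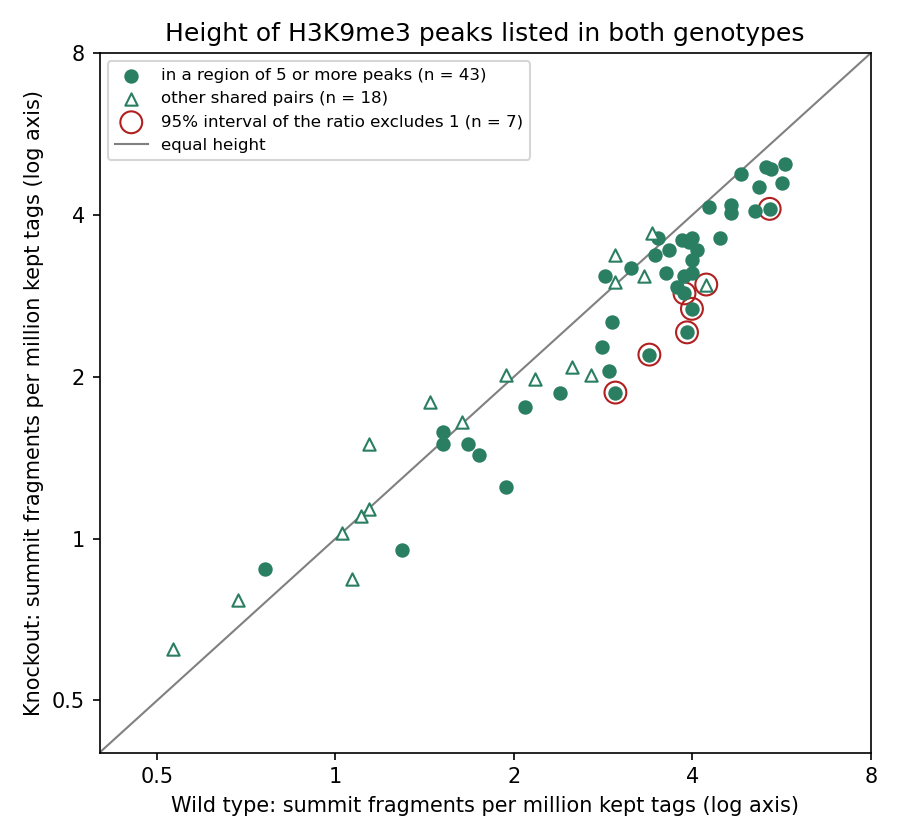
Wild-type against knockout height of the 61 shared H3K9me3 pairs in fragments per 1000000 kept tags, on log axes with 1 library per genotype. Filled circles are the 43 pairs in arrays, triangles the other 18, and red rings the 7 pairs whose interval excludes 1. Points lie below the line of equal height in 47 of 61 pairs, and all 7 ringed points lie below it.

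Outside the arrays the height ratios of the shared peaks lay on both sides of 1. Gm34259 on chromosome 17 had 90 wild-type and 101 knockout fragments, a ratio of 1.08 (0.806 to 1.45). On chromosome 3, shared places lay 5065 and 5567 bp from Aadac, which encodes arylacetamide deacetylase. The nearer had 87 and 84 fragments, a ratio of 0.930 (0.681 to 1.27), and the other 78 and 82. Dlgap2, a gene for a postsynaptic scaffold protein, had 71 and 55 fragments, a ratio of 0.746 (0.515 to 1.08), and at its other place 57 and 54. Sos2, a Ras exchange factor gene, had 66 and 57, a ratio of 0.832 (0.573 to 1.20). A place 5054 bp from Vmn1r-ps60, a vomeronasal receptor pseudogene, had 51 and 55. Ranbp3l had 43 and 45 at 9016169, and 38 and 49 at 9015858, a ratio of 1.24 (0.797 to 1.95). None of these intervals excluded 1. The highest ratio of any pair was at Mogat1, a monoacylglycerol acyltransferase gene on chromosome 1, with 30 and 41 fragments (1.32, 0.802 to 2.18), and its fold enrichment was 0.443 times the wild-type one. At Gm525 the heights were the same, 30 and 31 fragments, but the authors' fold was 9.58 in wild type and 3.11 in knockout.

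The peaks of wild type alone outside the arrays were low, with a median of 18 fragments over 54 peaks. The highest lay 3934 bp from Vmn1r2, a pheromone receptor gene on chromosome 4, at 3176864 to 3176992. It had 44 fragments and 8.33-fold enrichment, and 20 knockout fragments would have been enough for the list at the wild-type background. A second peak near Vmn1r2 had 26. Next came Speer8-ps1 on chromosome 5 with 40 fragments and another place on chromosome 5 at 15509154, also with 40. For both, 27 in knockout would have been enough at the wild-type background. Mogat1 had a further place at 78574485 with 32 fragments, for which 17 would have been enough at the wild-type background. At the shared place in Mogat1 the background was 3.17 times the genome-wide level in wild type but 10.8 times in knockout. Lrrk2, a kinase gene on chromosome 15, had 22 fragments and 9.44-fold at the genome-wide background, and Ahnak2 had peaks of 14 and 12.

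The peaks of knockout alone were fewer. The highest was in Mdga2, an adhesion molecule gene on chromosome 12, at 67059354 to 67059467, with 109 fragments. It was only 1.98-fold over an input 38.2 times the genome-wide level, and 92 wild-type fragments would have been needed at that background. Snhg14, the imprinted host transcript of small nucleolar RNAs on chromosome 7, had peaks of 53 fragments at 59769889 to 59770005, 5.24-fold, and of 32 fragments at 59768739 to 59768884. They needed 28 and 25 in wild type at the knockout background. The place on chromosome 5 at 15050992 had 35 fragments and 7.87-fold, against 16 needed in wild type at the knockout background. The wild-type peak nearby, at 15051758, had a background of 8.72 times the genome-wide level. Srsf4, a splicing factor gene, had 29. At Tusc3, a subunit gene of the oligosaccharyltransferase, the wild-type peak of 17 fragments at 39153122 and the knockout peak of 19 at 39152915 stood side by side without overlapping. In all, 24 of the 94 peaks of wild type alone and 6 of the 25 of knockout alone lay within 1000 bp of a peak of the other genotype.

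How far absence from a list reaches can be read in part from these limits. Each limit rests on the weakest listed peak of the other library and carries over the background of the peak itself. The weakest knockout peak was well within the q threshold, so lower knockout heights could also have been listed. Among the 94 peaks of wild type alone the height needed in knockout was under the rescaled height in 84, by at least 1.5 times in 24 and by at least 2 times in 7. For the 25 of knockout alone these numbers were 25, 6 and 2. Most peaks of wild type alone were thus within a factor of 1.5 of the height set by the weakest listed knockout peak. For those, a loss of the mark, a smaller drop in height and no change beyond counting error cannot be told apart.

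Shared peaks were higher, wider and stood on a higher input than the others. The median summit was 88 fragments for wild-type shared, 80 for knockout shared, 22 for wild type alone and 29 for knockout alone. The median fold enrichment hardly followed, at 4.79, 4.53, 5.27 and 4.85. The median input background was 11.5, 10.1, 2.38 and 3.60 times the genome-wide level in the same order. It was at the genome-wide level itself for 1 of 62, 3 of 63, 22 of 94 and 4 of 25 peaks. High shared peaks therefore lay where the input was also high, as at Sfi1 with 28.6 times the genome-wide level in wild type, and many low peaks of wild type alone rested on few input fragments. The genome-wide level equals 1.26 input fragments in wild type and 1.39 in knockout. What a high input at these places reflects was not tested.

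**Figure D4:**
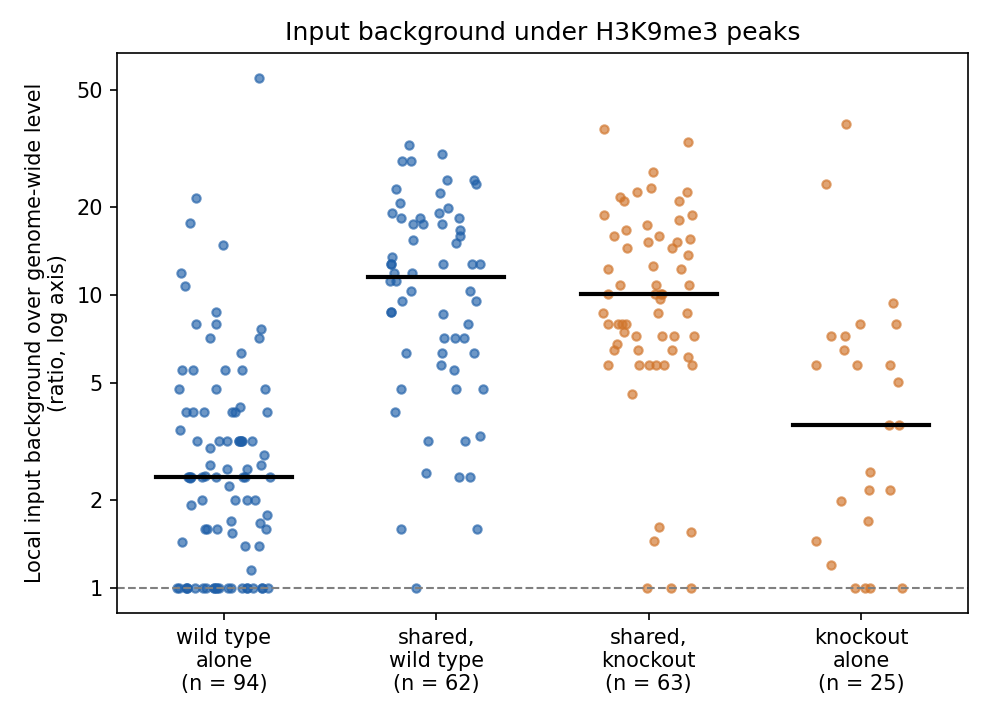
Local input background over the genome-wide level (y axis, log scale) under the 244 H3K9me3 peaks, by genotype and by shared or alone. Each point is a peak, spread sideways at random, black bars are medians, and the dashed line is the genome-wide level. Medians stand at 11.5 and 10.1 for shared peaks, above 2.38 for wild type alone and 3.60 for knockout alone, and the classes overlap widely.

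Peaks were narrow in both lists. Wild-type peaks had a median width of 152 bp (quartiles 116 to 238, range 97 to 1082), knockout peaks one of 156.5 bp (117 to 246, 98 to 1060), against the fragment lengths of 97 and 98 bp used in calling. Peaks were called in the narrow mode of the peak caller. Together they covered 33436 bp and 20023 bp. Shared peaks had medians of 211.5 and 190 bp, and those alone 129.5 and 119 bp. Within pairs the knockout peak was narrower in 41 and wider in 19 of 61, with a median ratio of 0.962 (0.922 to 0.986), and the summits were a median of 7 bp apart. The widest of both lists was at the start of chromosome 10 (3116060 to 3117141), with 1082 bp for wild type against 1060 bp for the knockout. 2700054A10Rik followed with 1023 and 1012 bp at 13552107 in wild type, and Sfi1 had a wild-type peak of 1002 bp at 3193056.

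The positions relative to genes were alike in both lists. In wild type 53 of 156 summits lay in a protein-coding gene (34.0%, interval 26.6% to 42.0%), against 30 of 88 in knockout (34.1%, interval 24.3% to 45.0%). Protein-coding genes cover 40.0% of the autosomes up to the last listed gene. Any listed gene held 78 wild-type (50%) and 48 knockout summits (54.5%), and 8 and 5 summits lay over 50 kb from any gene.

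Few genes had a peak nearby, inside or outside the groups known as H3K9me3 targets. Of all 47042 autosomal genes 0.23% had a wild-type peak and 0.147% a knockout peak within 10 kb. Among 623 vomeronasal receptor genes and pseudogenes, which detect pheromones and are silent in fibroblasts, 6 had a wild-type and 4 a knockout peak (0.963% and 0.642%). Vmn2r125 and Vmn1r-ps60 had both, Vmn1r2, Vmn1r3, Vmn2r-ps16 and Vmn1r238 had wild-type peaks only, and Vmn1r66 and Vmn1r-ps47 knockout peaks only. Neighbours such as Vmn1r2 and Vmn1r3 can share a peak, so these are not separate sites. Of 1420 olfactory receptor genes 0 had a peak of either genotype, and so had 0 of 58 clustered protocadherin genes. Among 441 zinc finger genes, taken by symbols starting Zfp, Zscan or Zkscan, 3 had a wild-type peak (0.680%) and 0 a knockout peak. These were Zfp978, Zfp991 and Zfp988 on chromosome 4, whose annotated spans overlap, so that all 3 genes share 3 peaks in all. The peaks at 147179401, 147336914 and 147391059 had 15, 16 and 17 fragments. At the wild-type background 15, 16 and 14 knockout fragments would have been enough for the knockout list. The peaks of these list genes were thus close to the height set by the weakest listed knockout peak. The list leaves out Znf41-ps, a pseudogene on chromosome 4 whose symbol starts otherwise. A peak of knockout alone, with 22 fragments, lay 2166 bp from it.

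Of the 54 imprinted genes of the list only Peg3 had a wild-type peak, and 0 had a knockout peak. Snhg14, with its peaks of knockout alone, is not on that list. Of 4 Dux family genes only Duxf3 had peaks, in both genotypes. Among 16 genes of the p53 response and cell cycle only Cdkn1a had a peak nearby, in both genotypes. The 25 genes of the H3K9 methylation machinery had 0, and the 382 ribosomal protein genes and pseudogenes, taken as a contrast group, also had 0. Over all lists 12 genes had a wild-type and 6 a knockout peak, and nothing is read from numbers this small.

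The PEG3 antibody peaks met mainly the shared H3K9me3 peaks. A PEG3 antibody peak of either genotype overlapped 31 of 156 wild-type H3K9me3 peaks (19.9%) and 27 of 88 knockout ones (30.7%). Among shared peaks these were 27 of 62 (43.5%) on the wild-type side, and 26 of 63 (41.3%) on the knockout side. Among peaks of wild type alone they were 4 of 94 (4.26%), and among knockout alone 1 of 25 (4.0%). The PEG3 and H3K9me3 lists of a genotype were called against the same input, and the part of the input in this overlap was not tested.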

How the data were processed

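ChIP-seq of mouse embryonic fibroblasts was measured with 1 library per genotype and antibody. The submitters' processing notes name Bowtie2, SAMtools and the build mm10. The authors used MACS2 2.2.6 to call peaks of each library over the same genotype's input (q threshold 0.05), keeping 1 tag per position, per the file headers. The deposited tables give the pileup signal at each summit, the fold enrichment over local input, and −log10 p and −log10 q values. Whichever of ChIP and input was larger was scaled down to the other, per the file headers. The last column names were lost in the deposited tables, and those columns were identified by recomputing −log10 p from pileup and fold with a Poisson distribution.

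Fragments were recovered as pileup divided by the scale, and the background from the fold. The height needed in the other library is the fragment number that reaches its lowest listed −log10 p at the carried-over background, rescaled to depth. It ignores counting error. For the knockout list, whose weakest peak was well within the q threshold, it can exceed what listing required. Shares have Clopper-Pearson intervals, ratios exact conditional intervals and medians order-statistic intervals, all at 95%. Those of ratios cover counting error only. Those of shares and medians treat peaks or pairs as independent draws. No test was made. The overlap and interval code was checked on simulated lists. Genes were placed by a RefSeq table of GRCm38.p6 (49997 genes with a position) without strand or exons. No genome or repeat annotation was used here, so sequence is described only for the RefSeq promoter windows that met a peak, and no peak was assigned to an annotated repeat class. The work used SciPy 1.17.1, pandas 2.3.3 and NumPy 2.4.6 under Python 3.11.15, and figures were drawn with matplotlib 3.10.9.

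The members and gene lists were chosen with earlier results of these data known. Named were the regions with at least 5 peaks, the 10 highest peaks of each class outside them, pairs with an interval excluding 1, the 5 widest peaks and list genes with a peak, described in full or by example, and 1 of the named peaks is not reported here. Ahnak2, Srsf4, Tusc3, Lrrk2 and Gm525, the Mogat1 pair, and the Ranbp3l place at 9015858 were chosen after their values were seen. Alternatives covered overlap, q threshold, chromosomes, PEG3 overlap, scaling, merging distance and gene distance.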

Additional observations from a re-analysis of the deposited data

How the results depend on the processing

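Of 50 values recomputed under alternatives, 38 stayed within the main value's interval, spread or 1.5 times its count. The median height ratio ran from 0.871 to 0.910 in those. It was 1.004 with the authors' fold and 1.004 without the regions of at least 5 peaks, so the direction of the height difference held in neither, and it was 0.972 without peaks that overlap a PEG3 antibody peak. The shared percentage of wild-type peaks was 55.1% when a gap of 1000 bp counted as shared. Without PEG3-overlapping peaks it was 28.0% in wild type and 60.7% in knockout, and without the regions of at least 5 peaks 25% and 47.4%. Median widths were 211.5 and 190.0 bp in shared peaks only, and list genes with a peak were 30 and 15 within 50 kb. The cause was not tested. Leaving out those regions, cutting the wild-type list at the lowest knockout −log10 p, and counting each region once were chosen after seeing the data. No paired analysis was possible because each group has 1 library, and no library could be left out.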

Other observations

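The following sites were picked after their values were seen and are given as values only. Of the autosomal H3K9me3 peaks, 23 of 156 in wild type (14.7%, on 6 chromosomes, in 9 merged regions) and 19 of 88 in knockout (21.6%, on 5 chromosomes, in 7 regions) started in the first 4 Mb of the chromosome numbering, the sequence next to the centromere. Leaving out the first 3 Mb, which the assembly gives as unsequenced, that window is 0.791% of the autosomes. A further 15 wild-type (9.62%) and 12 knockout peaks (13.6%), in 3 regions each, lay within 1 Mb of the last listed gene, another 0.791%. Near Speer genes, a rodent family with 11 of its 15 autosomal members on chromosome 5, 7 wild-type peaks of 17 to 40 fragments (median 27) and 1 knockout peak of 35 fragments were listed within 50 kb. Of the 7, 0 were shared, while 94 of all 156 wild-type peaks were not shared. For the Speer peaks at 15579841 and 17468706, of 17 and 20 fragments, the height needed for the knockout list was over their own rescaled height. For the other Speer peaks it was under their own.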
